A study of Mus musculus with 50 samples.

Results

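The genes described here are the interleukin 12 family and interferon gamma, chosen by name as Il12a, Il12b, Ebi3, Il27, Il12rb1, Il12rb2 and Ifng. All 7 were measured, by 9 features of the array among 15312 named genes with a measured feature, since Il12a and Il12rb1 have 2 features each. The samples are 50 spleen samples of female mice, each on 1 two-colour array. Independent experiments are given by the series text for the time points, and elsewhere the arrays of a group may not be independent mice. Each value is a log2 ratio of spleen RNA over a common reference RNA pooled from mouse cells and organs, so a value of 1 is a doubling over the reference, and levels can be compared between samples of a gene but not between genes.

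BALB/c mice received an intraperitoneal injection of 400 µg of an equimolar mixture of CpG oligodeoxynucleotides (ODN) and were examined at 6 times, 0.5, 1 and 3 h and then 9, 24 or 72 h after it (n = 4 arrays each). Other BALB/c mice received 400 µg of the control ODN mixture and were examined after 3 h (n = 4), and 6 arrays were made from untreated BALB/c mice. All BALB/c mice are titled wild type (WT). C57BL/6 TNF-KO mice, which carry a knockout of tumor necrosis factor, and C57BL/6 control mice were examined 3 h after CpG ODN or untreated (n = 4 in each of the 4 groups). The labels do not say how the knockout was made or give the age of any mouse, and no dose is recorded for the C57BL/6 mice. For the 8 C57BL/6 arrays titled CpG another label field reads untreated. The titles were followed. In control mice Tnf lay between 3.15 and 4.59 after CpG and between 0.58 and 0.78 untreated. In TNF-KO mice it lay between -0.45 and 0.43 after CpG and between -0.61 and 0.09 untreated. Tnf thus marks the genotype of the TNF-KO arrays but cannot check their treatment.

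Interleukin 12 is a secreted heterodimer that dendritic cells and macrophages make when Toll-like receptors are engaged. Its subunits are encoded by Il12a and Il12b, and the family recombines its parts, since Il12b also pairs with Il23a in interleukin 23 and Ebi3 pairs with Il27 in interleukin 27. The receptor, made of Il12rb1 and Il12rb2, signals through Tyk2, Jak2 and Stat4 in natural killer (NK) and T cells and drives them to make interferon gamma, which in turn acts on macrophages and other cells. Unmethylated CG dinucleotides in DNA are recognised by Toll-like receptor 9.

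The injected sequences are shown because the comparison of the mixtures rests on them, with each CG in capitals, 5′ to 3′. CpG ODN 1555 and its counterpart 1612 have 15 bases, and CpG ODN 1466 and its counterpart 1471 have 10. The control ODN 1612 kept 1 of the 2 CG of ODN 1555, and ODN 1471 held none.
CpG ODN 1555: gctagaCGttagCGt
CpG ODN 1466: tcaaCGttga
control ODN 1612: gctagatgttagCGt
control ODN 1471: tcaagcttga

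Promoter windows from RefSeq, 250 bases before to 50 after an annotated start (GRCm38.p6), were found for 5 of the 7 members, in 6 windows. Positions count from the start of each window, which for Il12rb2 and the second Il12a window is not the outermost start of the gene. Those of Il12b (chr11:44399813-44400112, plus strand) and Ebi3 (chr17:55952373-55952672, plus strand) are shown because these members were called higher after CpG ODN at several times. Capitals mark a match to the NF-kB consensus.
Il12b: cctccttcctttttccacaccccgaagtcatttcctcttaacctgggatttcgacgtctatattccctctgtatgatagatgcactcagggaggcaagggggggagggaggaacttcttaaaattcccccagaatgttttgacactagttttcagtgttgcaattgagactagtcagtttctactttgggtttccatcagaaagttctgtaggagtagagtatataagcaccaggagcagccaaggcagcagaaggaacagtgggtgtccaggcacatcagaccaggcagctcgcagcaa
Ebi3: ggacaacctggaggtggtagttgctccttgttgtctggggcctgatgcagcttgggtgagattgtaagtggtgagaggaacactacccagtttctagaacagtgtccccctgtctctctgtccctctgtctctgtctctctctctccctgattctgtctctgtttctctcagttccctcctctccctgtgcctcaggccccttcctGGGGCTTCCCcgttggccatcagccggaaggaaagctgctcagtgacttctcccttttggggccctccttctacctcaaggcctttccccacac
The match in Ebi3 lies at positions -44 to -35 from the start, and the Il12rb2 window held GGGACTTCCC at -1 to 9. Of 32851 windows in the table, 4.5% held this consensus on either strand. A STAT type motif, TTCNNNGAA, was found in the Il12rb2 window at -123 to -115 and in the Ifng window at -249 to -241, and is present in 8.3% of windows. The windows of Il12a and Il12b held no match to these motifs, and none of the 6 windows held the AP-1 type TGANTCA (7.8% of windows) or the interferon response type GAAANNGAA (8.6%).

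In BALB/c spleen CpG ODN raised 4 members at 1 h, and Il12b carried the response. Differences are CpG minus untreated on the log2 scale, with limma's standard error and an adjusted p over all genes tested, and a call is an adjusted p under 0.05. No member was called at 0.5 h, when 0.256% of 15264 genes were, and 1 member had an unadjusted p under 0.05, as had 9.74% of genes. At 1 h Il12b, Ebi3, Ifng and Il12rb2 rose, or 4 of 7, against 3.01% of genes called higher. At 3 h and again at 9 h Il12b, Ebi3 and Il12rb1 rose, against 6.82% and 4.19% of genes. At 24 h Il12b and Il12rb1 remained called (6.81% of genes), and at 72 h Il12rb1 was the sole call (6.43%). No member was called lower at any of the 6 times. The median difference over the 7 members was 0.68 at 1 h and 0.52 at 3 h, against 0.05 and -0.03 over all genes tested.

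**Figure D1:**
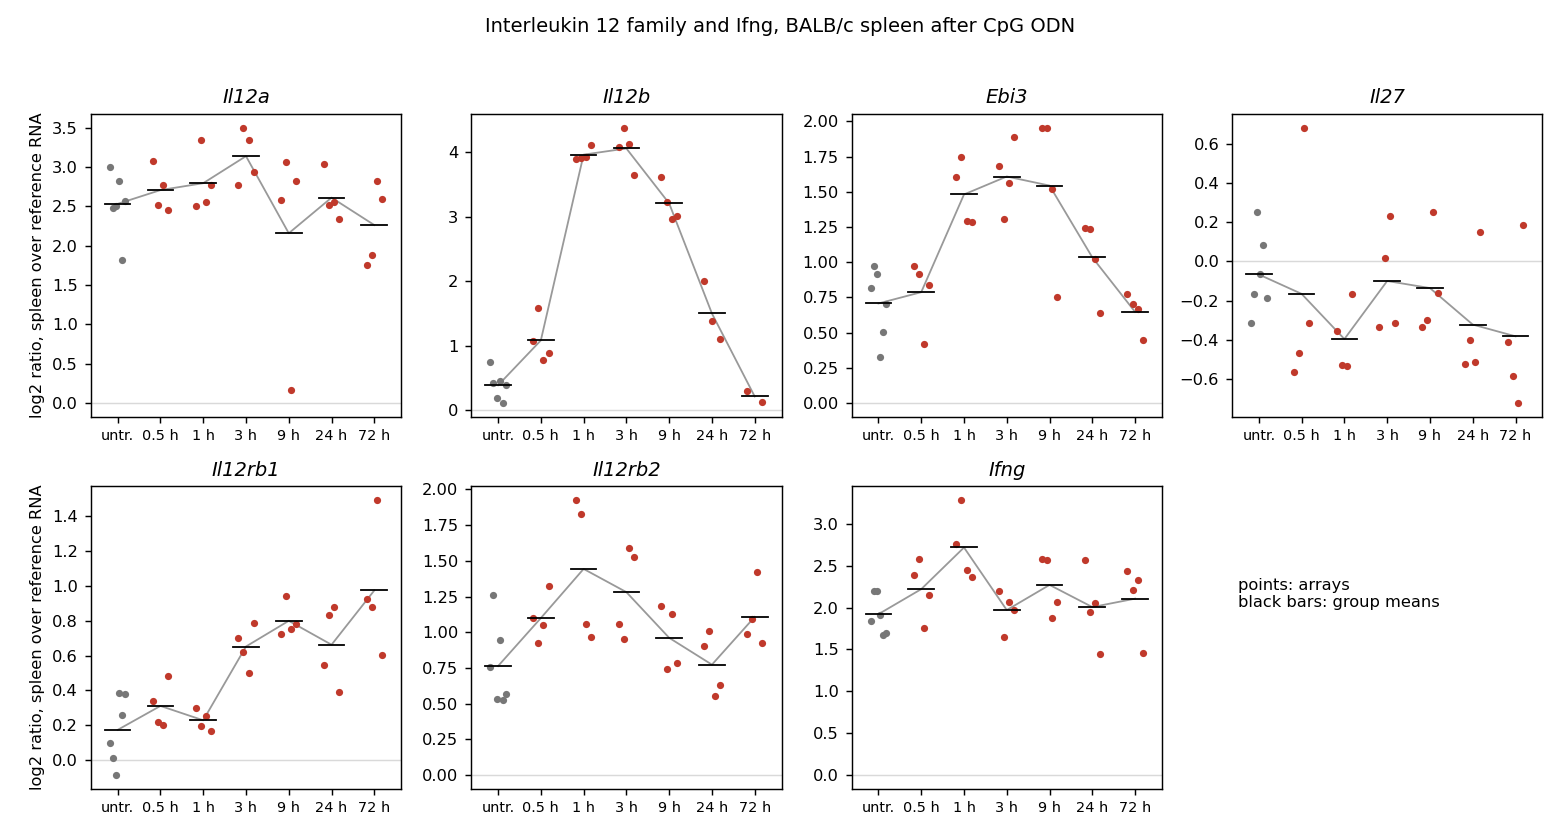
Log2 ratio of spleen over reference RNA for each member, in untreated BALB/c mice (grey, 6 arrays) and at 6 times after CpG ODN (red, 4 arrays each unless a value is missing). Points are arrays, black bars are group means and the grey line joins the means. Il12b lay at 3.90 to 4.11 at 1 h and 3.65 to 4.38 at 3 h, above every other BALB/c array.

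Il12b encodes the subunit shared by interleukin 12 and interleukin 23. Its lowest, median and highest values in untreated BALB/c mice were 0.12, 0.41 and 0.76. The arrays at 0.5 h gave 1.08, 1.58, 0.78 and 0.90, just above every untreated array, but the difference of 0.70 ± 0.18 (SE) did not pass (adjusted p = 0.183; 0.79 and 0.0384 with array weights). At 1 h the values were 3.90, 3.91, 3.93 and 4.11. The difference was 3.57 ± 0.18, an 11.9-fold rise (adjusted p = 3.71e-14). Of this, 2.88 ± 0.20 lay between 0.5 h and 1 h (adjusted p = 3.71e-10), a step at which 0.642% of genes were called higher and no other member was.

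The level at 3 h was 4.08, 4.38, 4.13 and 3.65, or 3.67 ± 0.18 above untreated, 12.7-fold, and differed from that at 1 h by 0.10 ± 0.20 (95% interval -0.31 to 0.51, adjusted p = 0.819). At 9 h the arrays read 3.62, 3.23, 2.97 and 3.01. All lay below the 3 h arrays, and the difference of -0.85 ± 0.20 passed (adjusted p = 0.0306, 0.819% of genes called lower), though not when any of 6 of the 8 arrays was left out, namely 3 h replicates 1, 2 or 3 and 9 h replicates 2, 3 or 4 (adjusted p up to 0.141), nor with only the arrays compared or with all 50. The level at 9 h was still 2.82 ± 0.18 above untreated (adjusted p = 3.68e-12).

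At 24 h Il12b had values on 3 of 4 arrays, 2.01, 1.38 and 1.11, which lay above all untreated arrays by 1.11 ± 0.20 on average (adjusted p = 0.000418). The difference from 9 h was -1.71 ± 0.22 (adjusted p = 1.46e-05, 2.05% of genes called lower). At 72 h the 2 measured arrays read 0.31 and 0.13, within the untreated range, and the difference from untreated was -0.17 ± 0.23 (adjusted p = 0.658). The step from 24 h to 72 h passed at -1.29 ± 0.26 (adjusted p = 0.005, 1.07% of genes called lower; 0.069 without 72 h replicate 2). No array at 24 h shares a run of neighbouring array numbers in the titles with one at 72 h. The step from 24 h to 72 h and the run therefore cannot be told apart. Nor does any array at 9, 24 or 72 h share a run with an untreated array. Il12b was measured on 42 of 50 arrays, and the 8 missing values fell in groups with a mean of 1.50 or lower. The authors removed flagged spots and spots with both signals under 100, and the fit dropped these arrays, so the means of those groups rest on the measured arrays alone.

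Il12a encodes the other subunit of interleukin 12. Its main feature gave 1.82, 2.53 and 3.00 as lowest, median and highest in untreated BALB/c mice. At 3 h after CpG ODN it read 2.77, 3.49, 3.35 and 2.94, overlapping the untreated arrays, and the difference of 0.61 ± 0.35 did not pass (adjusted p = 0.36). At 9 h the arrays read 2.58, 3.06, 0.17 and 2.82, with replicate 3 far below the rest. Differences at the 6 times ran from -0.37 to 0.61 with none called, and the second feature ran from -0.08 to 0.50 with none called.

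Ebi3 encodes the subunit of interleukin 27 that pairs with the product of Il27. Its untreated BALB/c arrays spanned 0.33 to 0.97 with a median of 0.76. At 1 h it read 1.60, 1.75, 1.29 and 1.28, all above the untreated arrays, with a difference of 0.77 ± 0.19 (adjusted p = 0.0156; the call was lost with arrays scaled to the same spread and without 1 h replicate 1 or 2). At 3 h the values were 1.68, 1.30, 1.56 and 1.89, again clear of the untreated arrays, and the difference of 0.90 ± 0.19 was a 1.87-fold rise (adjusted p = 0.00119).

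At 9 h Ebi3 read 1.95, 1.95, 1.52 and 0.75, with 1 array inside the untreated range, and stood 0.84 ± 0.19 above untreated (adjusted p = 0.00403). The difference was 0.33 ± 0.19 at 24 h (adjusted p = 0.316) and -0.06 ± 0.19 at 72 h (adjusted p = 0.866). No step between successive times passed for Ebi3, except from 9 h to 24 h without 9 h replicate 4 (-0.77, adjusted p = 0.0213). Il27 itself was not called at any time, with differences of -0.33 to -0.03 (at 72 h -0.45 and an adjusted p of 0.0171 with array weights), and its BALB/c arrays after CpG ODN spanned -0.72 to 0.68 against -0.32 to 0.25 untreated.

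Ifng encodes interferon gamma, the main product of the pathway. Untreated BALB/c arrays lay at 1.68, 1.88 and 2.20 (lowest, median and highest). At 1 h the values were 2.76, 3.28, 2.45 and 2.37, all above the untreated arrays. The difference of 0.80 ± 0.22 was a 1.74-fold rise (adjusted p = 0.0296), and the level at 3 h, 2.20, 1.65, 2.07 and 1.97, was 0.75 ± 0.24 lower than at 1 h (difference -0.75, adjusted p = 0.0392, 6.01% of genes called lower). No other time was called, with differences of 0.05 to 0.35 at 0.5, 3, 9, 24 and 72 h. Both calls were lost with arrays scaled to the same spread and without either of 1 h replicates 1 and 2, the 1 h call also without any of untreated replicates 1, 5 and 6, and the later one also without any of 3 h replicates 2, 3 and 4 (adjusted p up to 0.592 and 0.499 over the alternatives tried).

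Il12rb2 encodes the signalling chain of the interleukin 12 receptor. It read 1.93, 1.83, 1.06 and 0.96 at 1 h, against a lowest, median and highest of 0.52, 0.66 and 1.26 untreated, so that 2 of the 4 arrays lay within the untreated range. The difference was 0.68 ± 0.19 (adjusted p = 0.0357), and the call was lost in 11 of the 22 alternatives, among them array weights, the same spread and leaving out any of 6 arrays (1 h replicates 1 and 2, untreated 1, 3, 5 and 6). At 3 h it was 0.52 ± 0.19 (adjusted p = 0.0826, and 0.0162, 0.00401 and 0.0318 with the same spread, with array weights and without untreated replicate 2) and at the other 4 times it lay between 0.01 and 0.34, not called.

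The 1 h arrays came from 2 runs of neighbouring array numbers in the titles, replicates 1 and 2 from the first and 3 and 4 from the second. Within the first run, which held 5 untreated arrays, the 1 h difference was 3.52 ± 0.23 for Il12b, 1.02 ± 0.20 for Ebi3, 1.16 ± 0.23 for Ifng and 1.21 ± 0.17 for Il12rb2, all called (adjusted p at most 0.00796). The second run held 1 untreated array and allows no check of the untreated spread, so its differences are given as values alone. They were 3.60 for Il12b, 0.32 for Ebi3, 0.22 for Ifng and -0.25 for Il12rb2, whose untreated array in that run was the highest of the 6, at 1.26. Whether the runs differ was not tested.

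Of the cell type markers at 1 h, those of neutrophils rose most often, with 4 of 8 called higher and a median difference of 0.99. Their mean per array was 3.59 to 3.90 at 1 h, against 2.11 to 2.82 untreated, without overlap. Neutrophil markers were also called higher in 3, 4, 2 and 1 of 8 cases at 3, 9, 24 and 72 h. Of 6 monocyte and macrophage markers 1 was called higher at 1 h, and of 9 dendritic cell markers 1, Ccr7. The dendritic list mean was 2.00, 2.38, 1.60 and 1.56 on the 1 h arrays, against 1.39 to 1.72 untreated. Of the NK cell markers 0 of 10 and of the T cell markers 0 of 9 were called, with median differences of 0.59 and 0.49, and the NK list mean of 3.01 to 3.43 overlapped the untreated range of 2.16 to 3.29. In whole spleen, more cells of a type and more RNA per cell cannot be told apart, and the part of these markers in the results was not tested.

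Il12rb1 encodes the receptor chain shared by interleukin 12 and interleukin 23. Its main feature read -0.09, 0.18 and 0.38 (lowest, median and highest) in untreated BALB/c mice. At 3 h it read 0.70, 0.62, 0.50 and 0.79, at 9 h 0.72, 0.94, 0.75 and 0.78, at 24 h 0.55, 0.84, 0.88 and 0.39, and at 72 h 0.92, 0.88, 1.49 and 0.60. Each of these arrays lay above every untreated array. The differences were 0.48, 0.63, 0.49 and 0.80, each ± 0.14, with adjusted p of 0.02, 0.00268, 0.0231 and 0.000262, and at 0.5 h and 1 h they were 0.14 and 0.06 and not called.

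The second feature of Il12rb1 showed none of this. Its differences at 3, 9, 24 and 72 h were 0.15, -0.12, -0.22 and 0.21 (each ± 0.29), and with the mean of both features the calls at 3, 9 and 24 h were lost while that at 72 h stood (0.51, adjusted p = 0.0238). Leaving out untreated replicate 3 also ended the calls at 3 h and 24 h. So did leaving out 3 h replicate 1 or 4 for the call at 3 h, and untreated replicate 2 or 24 h replicate 2 or 3 for that at 24 h. Beside the rise of the main feature, 5 of 10 NK cell markers were called higher at 72 h, namely Klrk1, Klre1, Klrc1, Klra8 and Cd244a, with a list mean of 3.19 to 3.76 against 2.16 to 3.29 untreated, and 3 of 9 T cell markers were called lower. At 24 h 3 of 10 NK cell markers were called higher, and monocyte and macrophage markers were in 3 of 6 cases at 24 h and 2 of 6 at 72 h, with list means of 3.23 to 3.81 and 3.07 to 3.88 against 1.89 to 3.08 untreated. At 3 h and at 9 h 1 of 10 NK cell markers was called higher. Their part in the result was not tested. At 9, 24 and 72 h no CpG array shares a run with an untreated array. For every member the differences from untreated at these times and the run therefore cannot be told apart by values within a run.

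**Figure D2:**
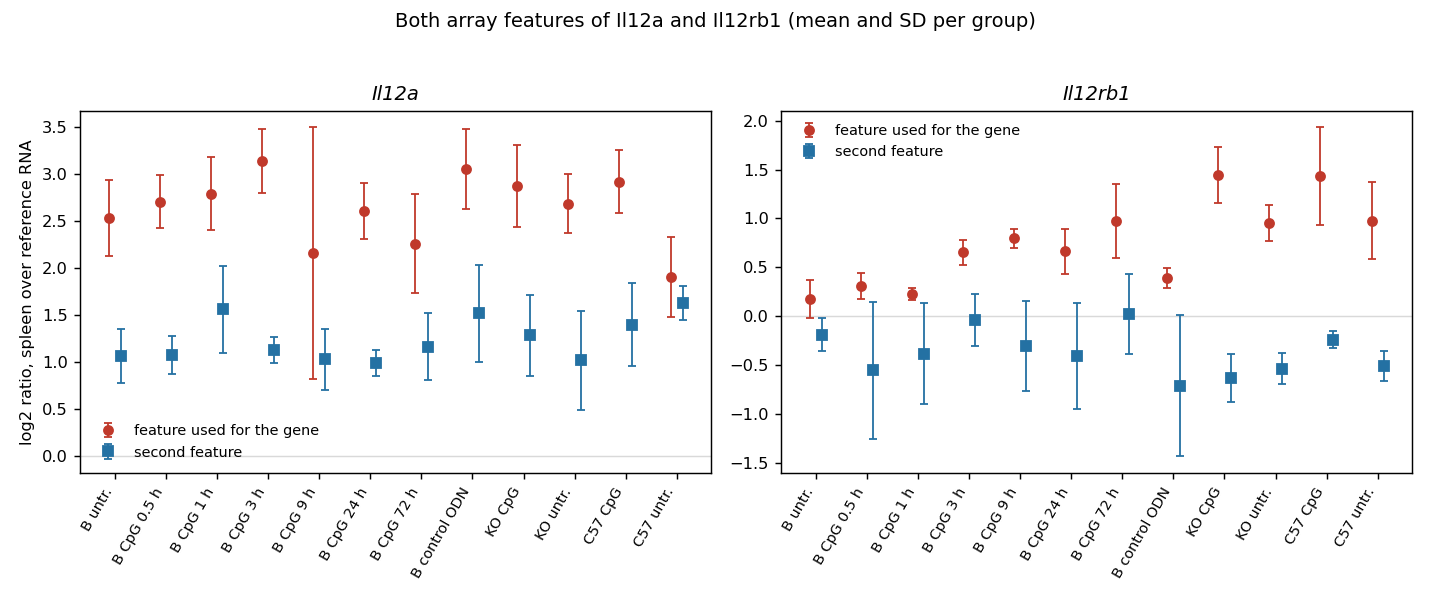
Group means of the log2 ratio of spleen over reference RNA, with bars of 1 SD, for both array features of Il12a and Il12rb1 in all 12 groups (B is BALB/c, C57 is C57BL/6 control, KO is C57BL/6 TNF-KO and untr. is untreated). The main feature of Il12rb1 climbed to 0.97 at 72 h in BALB/c mice while the second lay at 0.02, and the wide bar of Il12a at 9 h comes from 1 array at 0.17.

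The other genes of the pathway were read from 4 lists. Of the family partners Il23a, Il27ra and Il6st, the other subunit of interleukin 23 and the chains of the interleukin 27 receptor, none of 3 was called at any of the 6 times. Among 9 measured genes of receptor signalling, 3 were called higher at 1 h, 4 at 3 h and 2 at 9, 24 and 72 h. Stat4, the transcription factor that the interleukin 12 receptor activates, rose by 1.18 ± 0.25 at 1 h (adjusted p = 0.00318) and was 0.66 ± 0.25 above untreated at 3 h (adjusted p = 0.101). The feedback inhibitors Socs3 and Socs1 stood 4.09 ± 0.24 and 0.98 ± 0.27 above untreated at 1 h, and Tyk2, a kinase of the receptor, 1.23 ± 0.20 at 3 h (adjusted p = 3.34e-05).

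Of 13 genes that regulate Ifng or Il12 production, 1, 2, 5, 4, 3 and 3 were called higher at the 6 times in turn and none lower. Gadd45b, a stress-induced activator of p38 MAP kinase signalling in T cells, rose by 3.05 ± 0.20 at both 1 h and 3 h. Irf1, a transcription factor with sites in interferon-responsive genes, rose by 1.69 ± 0.24 at 1 h (adjusted p = 1.19e-05). Il15 and Il18, cytokines that act on NK cells, rose by 2.04 ± 0.19 and 1.54 ± 0.22 at 3 h (adjusted p = 8.31e-10 and 3.23e-06). Tbx21, Eomes and Runx3, transcription factors of interferon gamma producing cells, were not called at any of the 6 times.

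Genes that interferon gamma induces, many of which also answer type I interferons, were called higher in 0, 5, 10, 10, 9 and 9 of 14 cases at the 6 times in turn. The median difference over the list was 0.62 at 1 h, when Ifng was called higher, and 1.91, 1.81, 1.56 and 1.60 at 3, 9, 24 and 72 h, when it was not. Cxcl10 and Cxcl9, chemokines for activated T and NK cells, were 3.21 ± 0.29 and 2.12 ± 0.42 above untreated at 1 h (adjusted p = 7.27e-10 and 0.00152), and Cxcl10 was 4.46 ± 0.29 above it at 3 h. Gbp2 and Igtp, GTPases of cell-autonomous defence, were 2.70 ± 0.25 and 2.23 ± 0.21 above untreated at 72 h (adjusted p = 6.34e-09 for both). Ciita, Cd74, Ido1 and Nos2, which belong to antigen presentation and to tryptophan and arginine metabolism, were not called at any of the 6 times.

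**Figure D3:**
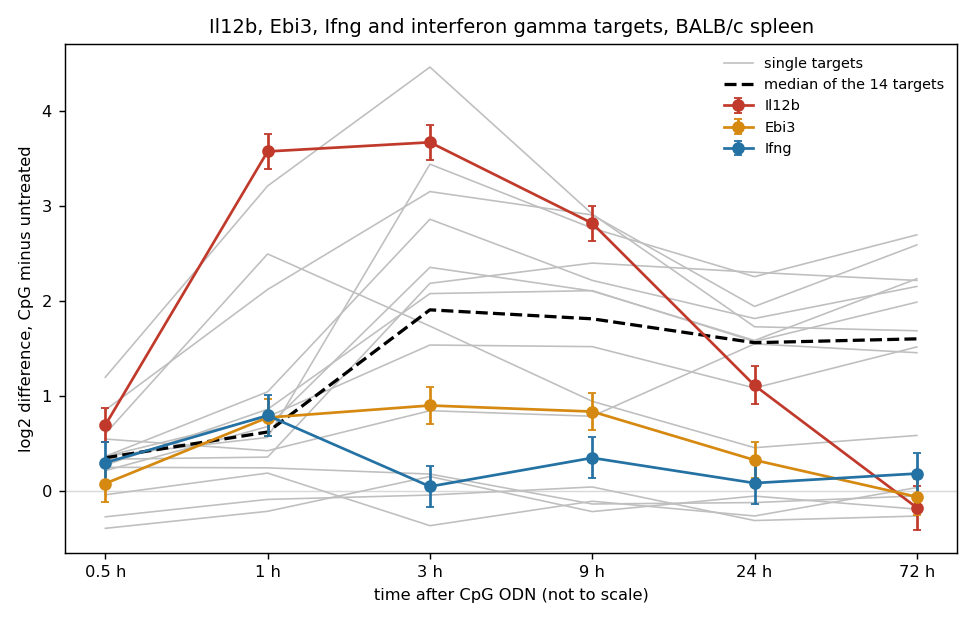
Log2 difference, CpG minus untreated, in BALB/c spleen at 6 times for Il12b, Ebi3 and Ifng (coloured, bars are the SE) and for 14 interferon gamma targets (grey lines, dashed black line their median). Il12b stood highest at 1 h and 3 h and was at -0.17 by 72 h, Ifng stood highest at 1 h (0.80), and the median target stayed at 1.56 or above from 3 h on.

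The control ODN separated Il12b from the rest of the family at 3 h. CpG ODN gave Il12b values of 4.08, 4.38, 4.13 and 3.65, against -0.03 and 0.10 on the 2 control ODN arrays that measured it. The difference of 4.03 ± 0.25 was 16.3-fold (adjusted p = 8.17e-13), and Il12b was the sole member called of 7, against 7.4% of genes called higher. The control ODN arrays share no run with the CpG arrays at 3 h, so run and ODN cannot be told apart in this comparison. Ebi3 read 1.68, 1.30, 1.56 and 1.89 after CpG ODN and 1.32, 0.75, 1.36 and 1.01 after control ODN, with 1 CpG array inside the control range, and the difference of 0.50 ± 0.21 did not pass (adjusted p = 0.0976, and 0.0184 and 0.031 with arrays scaled to the same spread and with array weights).

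Il12rb1 was 0.26 ± 0.15 higher after CpG than after control ODN (adjusted p = 0.244, and 0.0402 with the mean of both features), with no overlap of the main feature's arrays, and Ifng was 0.45 ± 0.24 lower (difference -0.45, adjusted p = 0.194). Against untreated mice no member was called after control ODN, where 1.42% of genes were. The differences were -0.36 ± 0.23 for Il12b (adjusted p = 0.367), whose 2 arrays lay just under the untreated ones, 0.50 ± 0.22 for Ifng (adjusted p = 0.172) and 0.40 ± 0.19 for Ebi3 (adjusted p = 0.212), and 2 members had an unadjusted p under 0.05, as had 22.3% of genes. Control ODN and untreated arrays share no run either, so run and treatment cannot be told apart here. Of the interferon gamma targets 0 of 14 were called, while 3 of 8 neutrophil markers, among them Mmp8, were called higher after control ODN too. Between CpG and control ODN, 3 of 6 monocyte and macrophage and 3 of 9 dendritic cell markers were called lower after CpG. So were 2 of 6 B cell and 1 of 9 T cell markers. Of 8 neutrophil markers 1 was called higher and 1 lower, and of 10 NK cell markers 1 higher. The part of these markers was not tested.

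**Figure D4:**
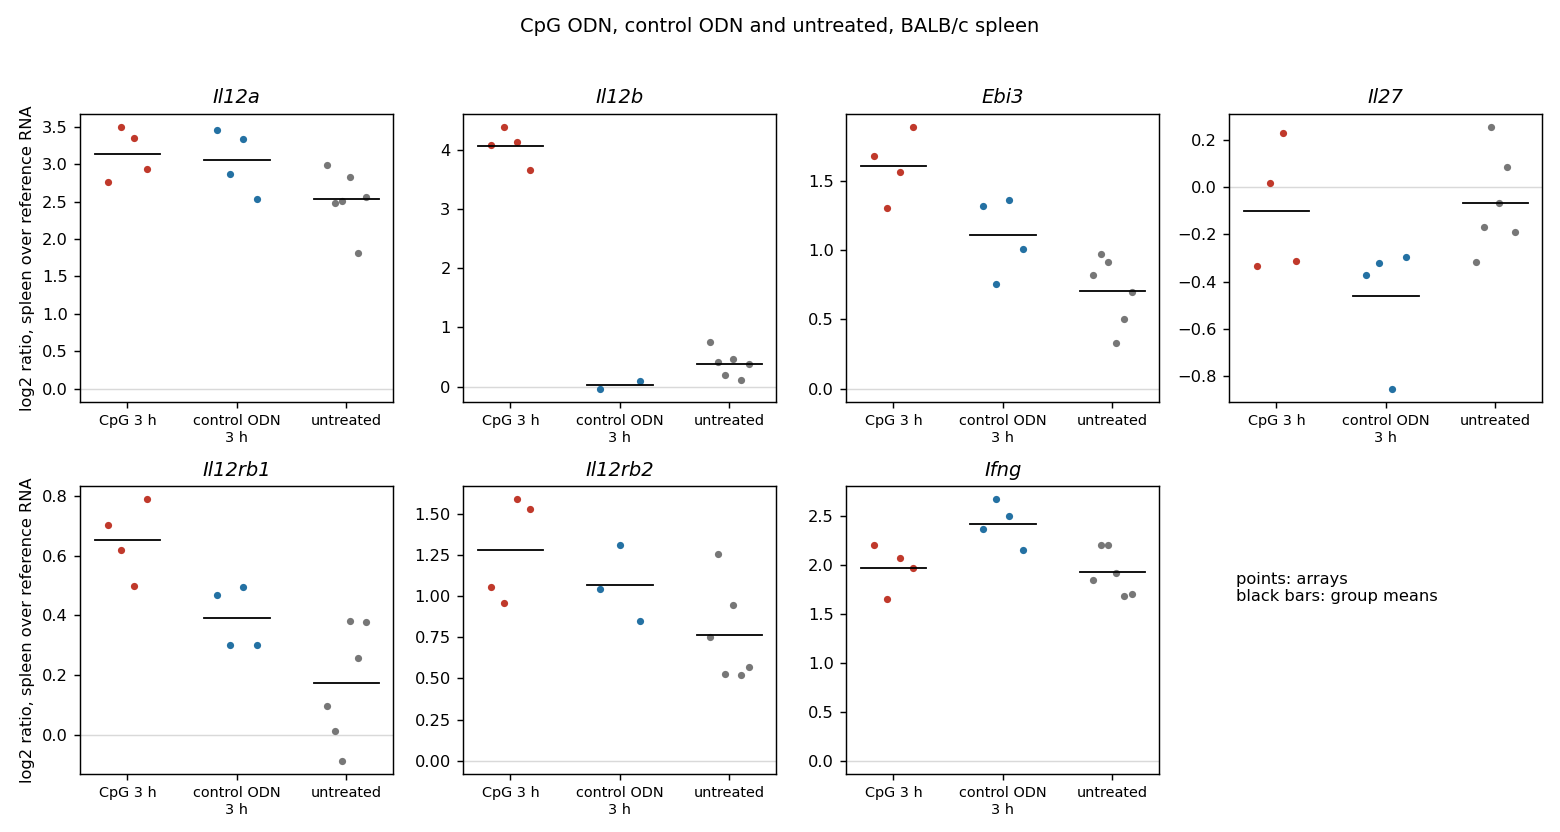
Log2 ratio of spleen over reference RNA for each member in BALB/c mice 3 h after CpG ODN (red, 4 arrays), 3 h after control ODN (blue, 4 arrays, of which 2 measured Il12b and 3 Il12rb2) and untreated (grey, 6 arrays). Black bars are means. The groups given CpG and control ODN do not overlap for Il12b, at 3.65 to 4.38 and -0.03 to 0.10.

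In C57BL/6 mice CpG ODN raised Il12b in both genotypes. Il12b read 3.88, 3.46, 3.86 and 2.69 in CpG-treated TNF-KO mice, against 0.34 and 1.37 on the 2 untreated TNF-KO arrays that measured it. In control mice it read 4.25, 4.07, 3.45 and 2.99 after CpG, against 0.44, 1.03 and 1.47 untreated. Neither pair of groups overlapped, and the rises were 2.61 ± 0.42 in TNF-KO mice (adjusted p = 0.00129) and 2.71 ± 0.37 in control mice (adjusted p = 0.000239), 6.12-fold and 6.53-fold. The responses differed by -0.09 ± 0.56, TNF-KO minus control, with a 95% interval of -1.28 to 1.10 (adjusted p = 0.982), so a difference of up to about that size in either direction was not resolved.

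Ebi3 was the other member called in TNF-KO mice, at 2.35, 2.15, 1.96 and 1.31 after CpG and 1.33, 0.74, 0.88 and 0.58 untreated. The lowest CpG array lay just under the highest untreated array, and the rise was 1.06 ± 0.24 (adjusted p = 0.0152). In control mice Ebi3 read 1.47, 1.97, 1.77 and 1.13 after CpG and 1.52, 1.18, 1.18 and 0.76 untreated, overlapping, and the difference of 0.42 ± 0.24 did not pass (adjusted p = 0.336; 0.67 and 0.0407 with runs of array numbers as a fixed block). The responses differed by 0.64 ± 0.34 (interval -0.09 to 1.36, adjusted p = 0.67). The TNF-KO call was lost without CpG replicate 1 or 2 or untreated replicate 2 or 4 (adjusted p up to 0.0757).

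Il12a was the other member called in control mice, and its 2 features went apart. The main feature read 2.96, 3.25, 3.03 and 2.44 after CpG and 1.91, 1.63, 2.50 and 1.57 untreated, with 1 array of each group overlapping, and stood 1.02 ± 0.25 higher after CpG (adjusted p = 0.0164). The second feature was -0.23 ± 0.27 (adjusted p = 0.71). In TNF-KO mice the main feature differed by 0.19 ± 0.25, and the responses differed by -0.83 ± 0.35 (interval -1.58 to -0.08, adjusted p = 0.581). TNF-KO minus control, the main feature differed by -0.05 ± 0.25 after CpG and by 0.78 ± 0.25 untreated (adjusted p = 0.96 and 0.199). The second feature went the other way in untreated mice, at -0.61 ± 0.27 (adjusted p = 0.421). The control call was lost with the mean of both features (0.39), in the fit of all 50 arrays, and without CpG replicate 2 or 3 or untreated replicate 2 or 4 (adjusted p up to 0.315).

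Il12rb1, Il12rb2, Il27 and Ifng were called in neither genotype. The main feature of Il12rb1 was 0.49 ± 0.24 higher after CpG in TNF-KO and 0.45 ± 0.24 in control mice (adjusted p = 0.383 and 0.297). In BALB/c mice at 3 h a difference of similar size, 0.48 ± 0.14, was called. The second feature of Il12rb1 differed by -0.098 ± 0.155 in TNF-KO and 0.265 ± 0.155 in control mice. Ifng read 2.21 to 2.87 after CpG and 1.98 to 2.94 untreated in TNF-KO mice, and 2.06 to 2.91 after CpG and 1.91 to 2.93 untreated in control mice, so all 4 groups overlapped. In all, 2 of 7 members rose in each genotype, against 3.42% of 14951 genes called higher in TNF-KO mice and 4.97% in control mice. No member was called for the difference of responses, where 4 genes or 0.0268% were and 1 member had an unadjusted p under 0.05 (7.94% of genes). None was called between TNF-KO and control mice after CpG (0.361% of genes called, 0 members with an unadjusted p under 0.05) or untreated (0.555%, 1 member). Of the interferon gamma targets 8 of 14 were called higher in each genotype, among them Cxcl10 at 3.82 ± 0.24 in TNF-KO and 3.61 ± 0.24 in control mice. Beside these results neutrophil markers were called higher in 6 of 8 cases in TNF-KO and 5 of 8 in control mice. Monocyte and macrophage markers were called lower in 2 of 6 cases in control and 0 of 6 in TNF-KO mice (median differences -0.87 and 0.04). After CpG 1 of these 6 was called higher in TNF-KO than in control mice. Also called were 1 of 9 T cell markers, lower in control mice, and 1 of 10 NK cell markers, higher in TNF-KO mice. The part of these markers was not tested.

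**Figure D5:**
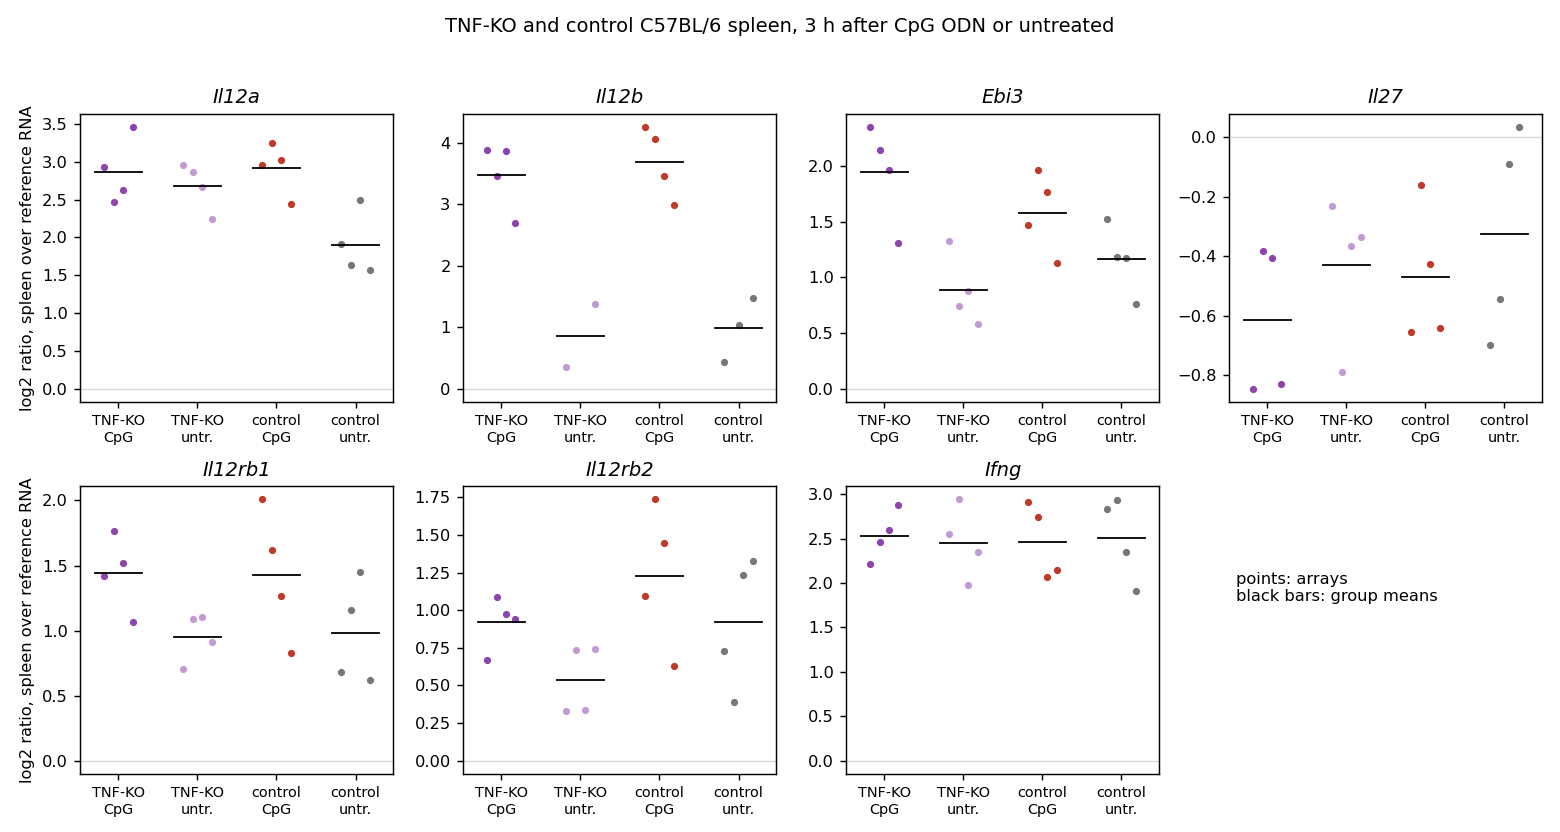
Log2 ratio of spleen over reference RNA for each member in C57BL/6 mice, from left to right TNF-KO after CpG and untreated and control after CpG and untreated (4 arrays each, Il12b measured on 2 untreated TNF-KO and 3 untreated control arrays). Black bars are means. Il12b lay at 2.69 or above on all 8 CpG arrays and at 1.47 or below on the untreated arrays, with the genotypes overlapping.

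The strains were compared in untreated mice and in their response at 3 h. Il12rb1 was the sole member called between untreated strains, at 0.68, 1.16, 1.45 and 0.62 in C57BL/6 control mice against -0.09 to 0.38 in BALB/c mice, a difference of 0.81 ± 0.17 (adjusted p = 0.00079), in a comparison where 8.47% of genes were called higher. The second feature went the other way at -0.32 ± 0.26 (adjusted p = 0.452). Ifng was 0.58 ± 0.23 and Il12b 0.59 ± 0.27 higher in C57BL/6 control mice without passing (adjusted p = 0.0786 and 0.135; 0.0267 for Ifng without untreated C57BL/6 control replicate 4 and 0.0312 for Il12b with array weights), while 5 of 10 NK cell markers were called higher and 1 lower. Called higher too were 4 of 9 T cell, 4 of 9 dendritic cell, 2 of 6 monocyte and macrophage and 2 of 8 neutrophil markers, with 1 neutrophil marker lower. Their part in the result was not tested.

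The response of Il12b at 3 h was smaller in C57BL/6 control than in BALB/c mice by 0.96 ± 0.38 (difference of responses -0.96, interval -1.73 to -0.20), and did not pass over all genes (adjusted p = 0.542). The level after CpG was 3.69 ± 0.58 in C57BL/6 control and 4.06 ± 0.30 in BALB/c mice (SD, n = 4 each). No member was called for this difference, where 0.453% of genes were and 1 member had an unadjusted p under 0.05 (6.46% of genes). The strains share no run of array numbers, so strain and run cannot be told apart. For the response, neither can the dose, which is not recorded for C57BL/6 mice.

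The 12 group means of Il12b fell into an upper set of 5 CpG groups and a lower set of the rest. Means of 4.06, 3.96, 3.69, 3.47 and 3.21 belonged to CpG at 3 h and 1 h in BALB/c, CpG in C57BL/6 control, CpG in TNF-KO and CpG at 9 h in BALB/c mice. Next came 1.50 at 24 h and 1.09 at 0.5 h in BALB/c mice, 0.98 and 0.86 in untreated control and TNF-KO mice, and 0.39, 0.22 and 0.03 in untreated BALB/c mice, at 72 h and after control ODN. Neighbours in this order overlapped, except across the gap between 3.21 and 1.50 and between 72 h and control ODN.

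Genes were ranked by the Pearson correlation of their 12 group means with those of each member, over 14816 genes, as a description without a test, since the groups share a reference RNA and strains. Closest to Il12b were Il6, an inflammatory cytokine (r = 0.968), Gadd45b (0.965) and Map3k8, a kinase downstream of Toll-like receptors (0.942). Closest to Ebi3 were Il1r2, a decoy receptor of interleukin 1 (0.948), and Csf2rb, a shared cytokine receptor chain (0.943). Closest to the main feature of Il12rb1 was Cd244a, a receptor of NK cells (0.966), whose means of 2.10 and 2.03 after CpG in TNF-KO and control mice were the highest of the 12 groups, as were those of Il12rb1. Ros1, a receptor tyrosine kinase (0.951), and Tap2, which transports peptides for MHC class I (0.942), followed. For Ifng, Il12a, Il12rb2 and Il27 the closest genes were Kcnmb4 (0.908), Tmem47 (0.879), Tnfaip2 (0.854) and Tmem44 (0.95).

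The arrays of a group resembled one another, with a median correlation of each array with the rest of its group between 0.857 and 0.943. Signs of neighbouring pancreas in the dissected spleens varied within groups, the mean over 8 pancreas genes lying between 0.28 and 6.92 on single arrays, and 0 of 8 of these genes were called in any comparison named here. It spanned 0.62 to 6.09 at 1 h and 0.28 to 5.72 at 3 h after CpG ODN, against 0.52 to 5.66 in untreated BALB/c mice. In TNF-KO mice it spanned 5.95 to 6.65 after CpG and 3.46 to 6.92 untreated. C57BL/6 control mice gave 3.57 to 6.54 after CpG and 0.46 to 6.10 untreated. Median differences over the 8 genes were 1.88 for CpG in control mice and 1.72 between untreated TNF-KO and control mice. The SE of Cpb1, 1 of these genes, was 1.29 in both comparisons, so the lack of calls does not show equal pancreas content. The part of pancreas in the results was not tested.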

How the data were processed

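Spleen RNA (Cy5) was measured against Universal Mouse Reference RNA (Cy3) on two-colour arrays. Per the series text, the authors corrected background, removed flagged spots and spots with both signals under 100, and deposited log2 ratios after lowess normalization within each array. Signal over background is unknown here. At 0.5 h the channel order in the labels is reversed but the dyes are not, and these arrays correlated with other groups at 0.752 or above, so no sign was turned.

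Each array was centred on its median. Features were named from the platform annotation, and the feature with most values stood for a gene. For Il12a and Il12rb1 both features had values on all 50 arrays, so this rule did not separate them. The number of values thus gives no reason to prefer the main feature of either gene over the second. Genes with values on over 70% of the arrays of a fit were tested on group means with limma 3.58.1 in R 4.3.3 (lmFit and eBayes), in fits of the 34 BALB/c, the 16 C57BL/6 or all 50 arrays, with Benjamini-Hochberg adjustment within each comparison. The code was tested on simulated data. Members and lists were chosen with earlier results of these data known. The text names all members, up to 4 list genes with the smallest p per comparison with uncalled ones chosen after their values were seen, and the genes closest to each member in group means. The 4 independent experiments per time point are given by the series text, and elsewhere the spread behind a p-value may be technical.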

Additional observations from a re-analysis of the deposited data

Results flagged for a closer look

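Of 102 groups of 4 to 6 values, 6 held 1 value far from the others by Dixon's test, and chance flags about 1 in 20 groups. Il12a at 9 h read 0.17 on replicate 3, and the second feature of Il12a read 0.63 on replicate 4 at 72 h. Il12b at 1 h read 4.11 on replicate 4, in a group spanning 0.21. The second feature of Il12rb1 read -0.59 on replicate 3 at 72 h and -1.79 on control ODN replicate 3, and Il27 read -0.85 on that same control ODN array.

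The response to CpG ODN differed between successive times in 5 cases by limma's test of the difference. Il12b differed by 2.88 between 1 h and 0.5 h, by -0.85 between 9 h and 3 h, by -1.71 between 24 h and 9 h and by -1.29 between 72 h and 24 h. Ifng differed by -0.75 between 3 h and 1 h.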

How the results depend on the processing

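Of 484 recomputed values of the 24 called member differences, 420 kept their direction and call, 63 lost the call and 1 turned. The Il12b calls at 1, 3, 9 and 24 h, between 1 h and 0.5 h and between 24 h and 9 h, against control ODN and in both C57BL/6 genotypes kept theirs under every alternative that tested Il12b. Where only genes with a value on every array of a fit were kept, Il12b was not tested, and Il12rb2 was tested only in the C57BL/6 fit. Calls fell to 8 for the 6 times (main 13), 0 against control ODN (1), 1 between successive times (5) and 1 in each C57BL/6 genotype (2). Against control ODN 2 members were called with arrays scaled to the same spread, with the mean of all features and with array weights. Successive times gave 3 calls with only the arrays compared. There the Il12b call between 9 h and 3 h was lost, and Il12b between 72 h and 24 h had too few values to be tested. C57BL/6 control mice gave 1 call with the mean of all features and with all 50 arrays. Untreated strains gave 0 calls with the mean of all features and 2 with array weights (main 1). Within the second run, an alternative chosen after seeing the data, 1 h and 3 h gave 2 calls (main 7), and Il12rb2 at 1 h turned to -0.25. That fit holds 1 untreated array, assumed to vary like the CpG arrays that give its spread, so its lost calls say nothing about stability. The cause of the other changes was not tested.

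Leaving out 1 array gave 10 to 13 calls for the 6 times, 3 to 5 for successive times (3 without 3 h replicate 2 or 3), 1 to 2 in each C57BL/6 genotype and 1 to 2 for untreated strains, where Ifng was called at 0.78 without untreated C57BL/6 replicate 4 (adjusted p = 0.0267). The replicate block gave 11 calls for the 6 times, losing Ifng (0.68, adjusted p = 0.089) and Il12rb2 (0.57, adjusted p = 0.222) at 1 h, and moved no other count. Deviations from the group mean had a median correlation of 0.04 in BALB/c and 0.10 in C57BL/6 mice between arrays of the same replicate number. Between arrays of other numbers it was -0.03 and -0.05. Arrays of the same run gave 0.145 in C57BL/6 mice, against -0.05 across runs, and in BALB/c mice both values were -0.01. Main fits took no account of replicate number or run. The number of arrays and the unknown signal over background limit precision.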
